A study of Mus musculus with 4 samples.

Results

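Transcripts of 40 genes for cyclins, cyclin-dependent kinases (CDKs) and the proteins that regulate them were examined in cells labelled MIN6, the name of a mouse insulinoma line that is used in place of pancreatic beta cells. The genes were chosen by symbol, with earlier results of these data known, as a named set of the 23473 gene rows in a table of RNA-seq read counts. All 40 have a row, and 37 of them had enough counts to be tested. Cells labelled TLX overexpression gave 2 libraries and cells labelled wild type (control) gave the other 2. TLX is an orphan nuclear receptor encoded by Nr2e1, and the TLX cells carry it as a stable overexpression; the sources used here do not give the vector, its promoter or whether the cells are 1 clone or a pool. All cells were grown in medium with 25 mM glucose and 15% fetal calf serum, so the cyclin genes were read in serum-fed cultures in either group.

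The comparison asks which transcripts differ when TLX is overexpressed. Nr2e1 was counted 338 and 281 times in the TLX libraries, against 8 and 10 times in the control libraries (log2 fold change 5.22, SE 0.20, edgeR adjusted p = 3.18e-14), in the direction of the labels. Gene rows held 8136185 to 9788646 counts per library. The markers went against the labelled cell type. Of 17 genes that mark beta cells, 12 were at 0 in all 4 libraries, Nkx6-1, Iapp and Slc30a8 among them. The insulin genes were low, with Ins1 at 11.3 and 8.82 CPM (counts scaled to a common library size) in TLX libraries and 9.33 and 8.65 CPM in control libraries, and Ins2 at 3.70 and 6.30 CPM in TLX libraries and 5.39 and 4.02 CPM in control libraries. The summed level of the 17 was 21.3 and 22.1 CPM in TLX libraries and 21.1 and 18.9 CPM in control libraries. Pdx1 stood at 3.81 and 4.16 CPM in TLX libraries and 4.19 and 4.02 CPM in control libraries. Mafa stood at 1.96 and 2.39 CPM in TLX libraries and 1.68 and 1.61 CPM in control libraries. Of 15 mesenchymal and fibroblast markers, 9 averaged at least 5 CPM, and Lum was at 0. The others, Col3a1, Dcn, Thy1, Acta2 and Postn, were near 0, at 0.756 CPM or less in every library, so these markers were mixed as well. Col1a2, a chain of type I collagen, stood at 3880 and 3831 CPM in TLX libraries and 3287 and 3081 CPM in control libraries, and Vim, for vimentin, at 1858 and 1761 CPM in TLX libraries and 1638 and 1600 CPM in control libraries. The 15 summed to 8688 and 8360 CPM in TLX libraries and 8088 and 7673 CPM in control libraries. Single markers went both ways: of 9 tested, 2 rose, Col1a2 and Sparc (log2 fold changes 0.28 and 0.87, adjusted p of 0.0434 and 2.21e-08), and 2 fell, Fn1 and Pdgfrb (-0.76 and -0.73, adjusted p of 4.34e-07 and 0.00647). Their part in the results for the cyclin and CDK genes was not tested. Nothing in the labels says that the 2 libraries of a group came from separate cultures, so p-values measure the spread between these libraries, which may be technical.

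The CDKs of the cell cycle are active only when bound to a cyclin, and these cyclins come and go through the cell cycle. D-type cyclins with Cdk4 or Cdk6 act in G1, cyclin E with Cdk2 at the entry to S phase, cyclin A from S phase to G2, and cyclin B with Cdk1 at mitosis. Kinases such as Wee1, phosphatases of the Cdc25 family, inhibitors of the Cip/Kip and INK4 families and degradation by ubiquitin ligases set the activity of each pair. Other cyclin and CDK pairs, such as Cdk9 with a T-type cyclin, act on RNA polymerase II rather than on the cycle. Adult beta cells divide rarely, while insulinoma lines divide continuously in culture.

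Of the 37 tested genes, 11 rose with TLX, 0 fell and 26 did not pass (edgeR quasi-likelihood test, Benjamini-Hochberg adjusted p under 0.05 over 11024 genes). By the same rule 7.79% of all tested genes rose and 9.04% fell, while 29.7% of the tested cyclin and CDK genes rose. The set was chosen with earlier results of these data known, so these shares are descriptions, and no test over the set was run. At an unadjusted p under 0.05, 0 of the 37 were lower in edgeR, against 15.3% of all tested genes. At an adjusted p under 0.05, 0 of the 37 were lower in DESeq2 or limma-voom, which called 480 and 981 of all tested genes lower. DESeq2 called 6 of the 37 higher, where it called 3.26% of all genes with an adjusted p. Every rise was small: the log2 fold changes of the 11 lay between 0.28 and 0.64, which is 1.22- to 1.56-fold. The median log2 fold change was 0.21 over the 37 tested genes and 0.00057 over all tested genes. The log2 fold change was positive for 29 of the 37, against 50.1% of all tested genes. In 23 of the 37 both TLX libraries lay above both control libraries, in 4 both lay below and in 10 the groups overlapped. Among all tested genes 28.5% lay above in this way and 28.6% below. In bulk RNA, more cells in a phase of the cycle and more RNA per cell cannot be told apart. Ccne1, Ccnb1, Ccnf and Ccnd3 passed under each of 12 alternative settings, the replicate block apart, and the other 7 rises were lost in DESeq2, when 1 library was left out, or in both. The median log2 fold change of the 37 was 0.22 without TLX replicate 1 and 0.20 without TLX replicate 2. It was 0.15 without control replicate 1 and 0.24 without control replicate 2.

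**Figure D1:**
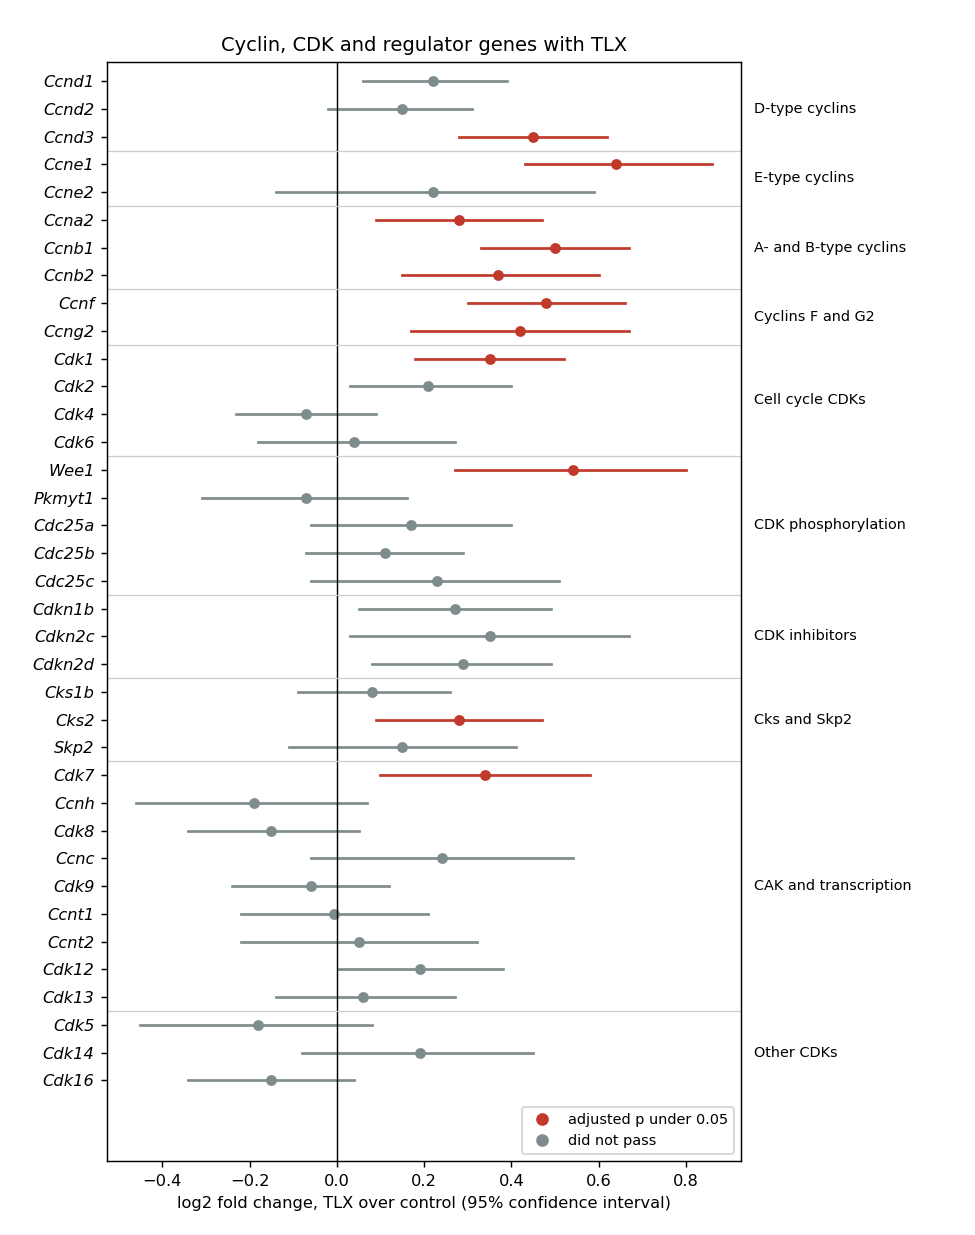
Log2 fold change of TLX over control with its 95% confidence interval for the 37 tested genes, grouped by role; red marks genes that passed the test and grey those that did not. The A- and B-type cyclins and cyclins F and G2 all lie to the right of 0, while the intervals of Cdk4, Cdk6, Cdk9 and Ccnt1 span it.

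The genes of the mitotic kinase were higher with TLX. Ccnb1 encodes cyclin B1, which activates Cdk1 at the entry to mitosis. It stood at 109.9 and 108 CPM in TLX libraries, against 76.2 and 78.4 CPM in control libraries. The groups lay far apart and the libraries within each close together (log2 fold change 0.50, SE 0.08, edgeR adjusted p = 1.36e-04). Ccnb2, which encodes the related cyclin B2, stood at 32.6 and 32.5 CPM in TLX libraries and 24.5 and 25.7 CPM in control libraries (log2 fold change 0.37, SE 0.11, adjusted p = 0.0188). Its adjusted p was 0.101 without TLX replicate 1, 0.0904 without TLX replicate 2 and 0.180 in DESeq2.

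Cdk1, the kinase that both B cyclins activate, stood at 115 CPM in each TLX library, against 93.9 and 86.7 CPM in control libraries (log2 fold change 0.35, SE 0.08, adjusted p = 0.00439). The adjusted p was 0.0650 and 0.0606 without TLX replicates 1 and 2, with the fold change at 0.35 in either case. Ccna2 encodes cyclin A2, the partner of Cdk2 in S phase and of Cdk1 in G2. It stood at 55.0 and 53.1 CPM in TLX libraries and 42.8 and 46.0 CPM in control libraries (log2 fold change 0.28, SE 0.09, adjusted p = 0.0374). That call was among the weakest: the adjusted p was 0.239 in DESeq2, 0.103 without control replicate 1, and 0.262 and 0.135 without TLX replicates 1 and 2.

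Ccnf encodes cyclin F, which binds no CDK and serves as the substrate-binding part of an SCF ubiquitin ligase. It stood at 70.5 and 72.2 CPM in TLX libraries and 53.3 and 49.2 CPM in control libraries (log2 fold change 0.48, SE 0.09, adjusted p = 4.68e-04). Ccng2 encodes cyclin G2, an atypical cyclin tied to growth arrest. It stood at 39.5 and 38.8 CPM in TLX libraries and 24.4 and 33.8 CPM in control libraries, so the control libraries differed from each other more than the TLX libraries did. Its log2 fold change was 0.42 (SE 0.12, adjusted p = 0.0195), and 0.21 without control replicate 1, where the adjusted p was 0.190. The adjusted p was 0.133 in DESeq2 and 0.0548 without TLX replicate 1, and without control replicate 2 the log2 fold change was 0.68.

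**Figure D2:**
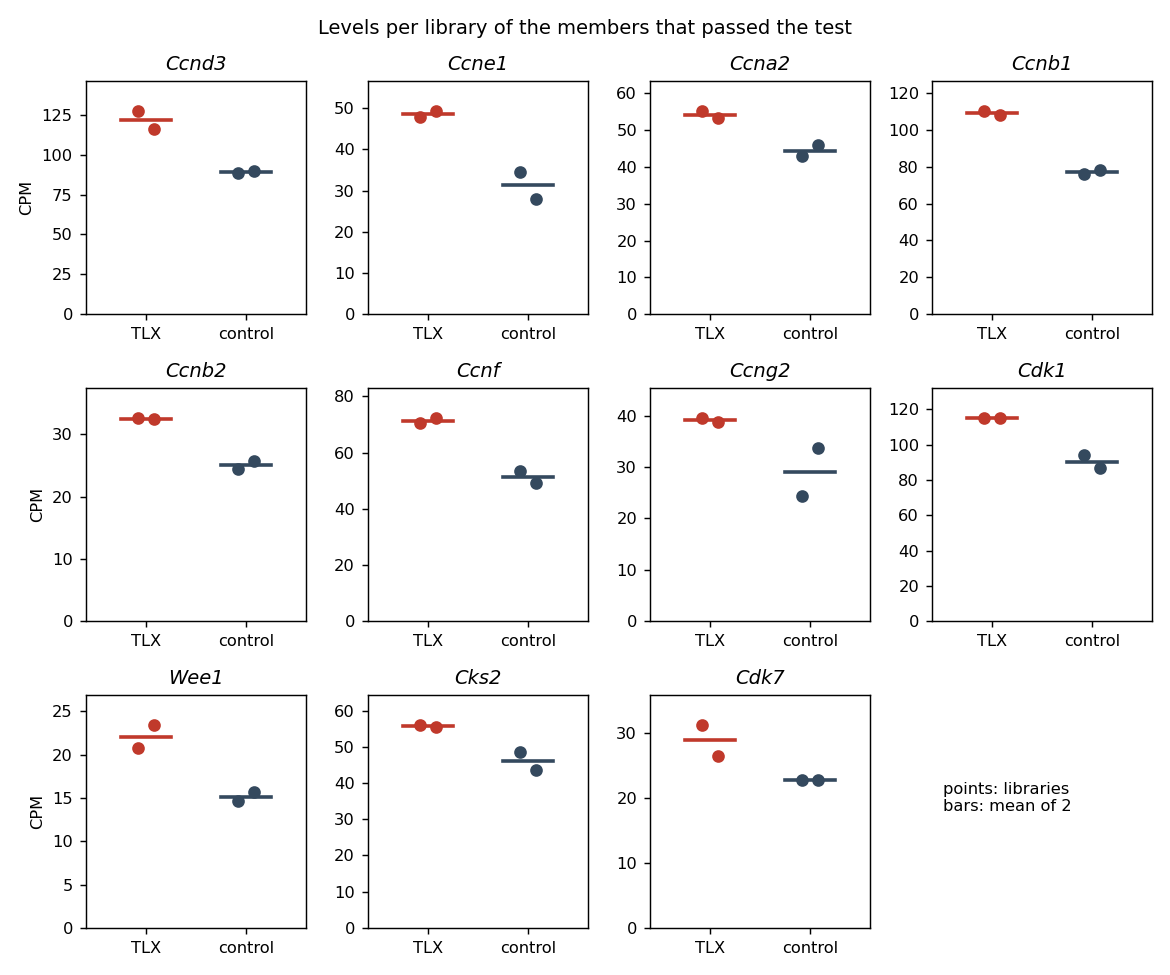
CPM in each library for the 11 genes that passed the test, with a bar at the mean of 2 libraries and axes that start at 0. In every panel both TLX points lie above both control points; for Ccng2 the control points lie apart, at 24.4 and 33.8 CPM.

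The promoters of 4 genes of this group that rose are printed here because they hold letters known from cell cycle genes. The windows run from 250 bases before to 50 after the annotated start, 5′ to 3′ on the strand of the gene, and were taken from RefSeq on GRCm38.p6. The reads were aligned to mm9, so these positions are not those of the authors' build. Capitals mark CCAAT or its complement ATTGG, the box bound by NF-Y, and TTTGAA, a form of the cell cycle homology region bound by the DREAM and MuvB complexes. Forms of this region other than TTTGAA and TTCGAA were not searched, so a window without them may still hold one.
Ccnb1, chr13:100786437-100786736, minus strand: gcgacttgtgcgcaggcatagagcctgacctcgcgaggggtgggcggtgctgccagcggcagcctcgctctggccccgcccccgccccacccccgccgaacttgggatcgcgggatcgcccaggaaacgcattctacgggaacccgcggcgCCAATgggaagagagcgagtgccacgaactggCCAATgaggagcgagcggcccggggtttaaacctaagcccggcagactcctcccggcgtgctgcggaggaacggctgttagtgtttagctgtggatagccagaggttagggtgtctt
Ccnb2, chr9:70421505-70421804, minus strand: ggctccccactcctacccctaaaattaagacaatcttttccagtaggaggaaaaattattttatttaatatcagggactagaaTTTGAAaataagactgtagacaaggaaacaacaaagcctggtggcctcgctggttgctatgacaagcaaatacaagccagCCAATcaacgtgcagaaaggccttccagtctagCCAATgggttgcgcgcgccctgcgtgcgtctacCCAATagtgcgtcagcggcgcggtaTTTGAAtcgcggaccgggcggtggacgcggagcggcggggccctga
Cdk1, chr10:69352863-69353162, minus strand: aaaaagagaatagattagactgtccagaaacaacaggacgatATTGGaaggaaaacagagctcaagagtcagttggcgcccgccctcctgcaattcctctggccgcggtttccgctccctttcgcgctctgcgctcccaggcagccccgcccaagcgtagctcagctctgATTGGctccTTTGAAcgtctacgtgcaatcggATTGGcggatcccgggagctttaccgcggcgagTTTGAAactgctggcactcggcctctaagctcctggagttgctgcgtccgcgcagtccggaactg
Ccnf, chr17:24251360-24251659, minus strand: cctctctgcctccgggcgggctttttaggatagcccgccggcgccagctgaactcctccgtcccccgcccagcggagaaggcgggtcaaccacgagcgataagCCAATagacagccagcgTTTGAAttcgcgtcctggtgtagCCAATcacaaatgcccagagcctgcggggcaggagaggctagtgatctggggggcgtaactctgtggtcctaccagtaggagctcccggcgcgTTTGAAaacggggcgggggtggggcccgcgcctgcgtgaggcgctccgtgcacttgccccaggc

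Ccnb1 holds CCAAT at 99 and 67 bases before its start, counted to the first base of the match, and neither TTTGAA nor TTCGAA. Ccnb2 holds CCAAT at 87, 54 and 21 bases before the start, and TTTGAA at 167 bases before it and again just after it. Cdk1 holds ATTGG at 208, 80 and 48 bases and TTTGAA at 71 and 15 bases before the start. Ccnf holds CCAAT at 147 and 107 bases and TTTGAA at 130 and 14 bases before the start. Neighbouring CCAAT boxes on the same strand begin 32 bases apart in Ccnb1, 33 bases apart in Ccnb2 (both pairs) and 40 bases apart in Ccnf. In Cdk1 the pair nearest the start begins 32 bases apart and the other pair 128 bases apart. A spacing of 31 to 34 bases, chosen after these sequences were seen, was found in 3 of 35 windows of the cyclin and CDK genes, those of Ccnb1, Ccnb2 and Cdk1. It was found in 1.72% of 10530 windows of tested genes, in 3.16% of the windows of all genes that rose and in 0.895% of all 32851 windows in the table.

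Windows were found for 30 of the 40 genes, 35 in all, and for 9 of the 11 that rose. On either strand CCAAT was in 19 of the 35 windows (54.3%), against 38.2% of windows of tested genes and 37.4% of all windows. For the genes that rose it was in 6 of 10 windows (60%), close to the share of the 35. TTTGAA or TTCGAA was in 8 windows (22.9%), against 13.6% of windows of tested genes and 19.2% of all windows. For the genes that rose it was in 3 of 10 windows (30%). TTCCCGC or TTGGCGC, letters of E2F sites, was in 7 windows (20%), against 12.5% of windows of tested genes and 6.81% of all windows. For the genes that rose it was in 2 of 10 windows (20%). The match in Ccnb1 begins 102 bases before the start and shares bases with the CCAAT box there. AAGTCA, the half-site bound by TLX, was in 2 windows (5.71%), those of Cdk4 and Skp2, neither of which passed the test, against 10.8% of windows of tested genes and 15.1% of all windows. The windows of Ccne1, Ccng2 and Cdk7, all of which rose, held none of these letters. Cks1b and Skp2, which did not pass, held both CCAAT and TTTGAA. A match is a string of letters in a short window and not a shown binding site.

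**Figure D3:**
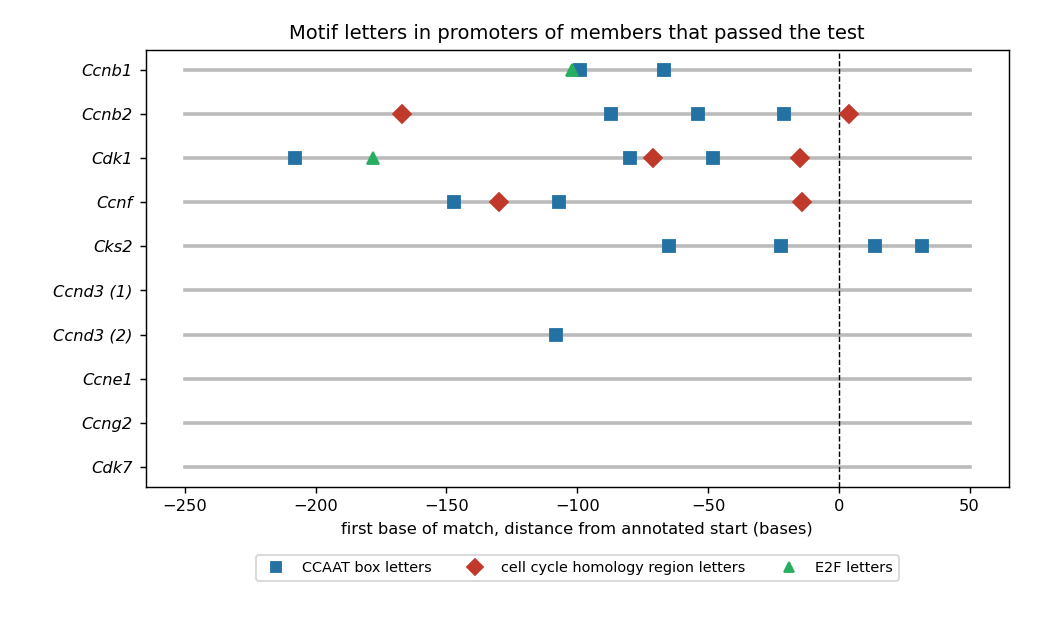
Positions of matches in the promoter windows of the 9 genes that rose and have a window, in bases from the annotated start (dashed line); squares are CCAAT letters, diamonds TTTGAA or TTCGAA and triangles E2F letters on either strand. Ccnb1, Ccnb2, Cdk1 and Ccnf hold several matches within 250 bases of the start, and Ccne1, Ccng2 and Cdk7 hold none; Ccnd3 has 2 windows.

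Of the cyclins of G1 and S phase, Ccne1 changed most. Cyclin E1 activates Cdk2 at the entry to S phase. Ccne1 stood at 47.9 and 49.2 CPM in TLX libraries, against 34.5 and 28.0 CPM in control libraries (log2 fold change 0.64, SE 0.11, adjusted p = 1.29e-04), the largest fold change and the smallest p of the 37. With single libraries left out its log2 fold change lay between 0.49 and 0.79, with adjusted p up to 3.08e-04. Ccne2, for the second E cyclin, was far lower, at 8.66 and 8.57 CPM in TLX libraries and 7.30 and 7.44 CPM in control libraries. Its groups did not overlap, but with so few counts the interval of its log2 fold change ran from -0.14 to 0.59 and it did not pass (adjusted p = 0.427).

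The D-type cyclins sense growth signals and bind Cdk4 and Cdk6 to start the phosphorylation of Rb. Ccnd3 stood at 127 and 116 CPM in TLX libraries and 88.7 and 89.5 CPM in control libraries (log2 fold change 0.45, SE 0.08, adjusted p = 4.75e-04; 0.0413 without TLX replicate 1). Ccnd1, the most abundant of the 40 genes in CPM, stood at 1048 and 1029 CPM in TLX libraries and 886 and 892 CPM in control libraries. Its groups did not overlap and its log2 fold change was 0.22 (95% confidence interval 0.06 to 0.39), with an adjusted p of 0.0557 that did not pass. It passed in DESeq2 (0.0368) and limma-voom (0.0337), with no filter on low counts (0.0340) and without Rn45s and Lars2 (0.0446). Ccnd2 stood at 509.6 and 529 CPM in TLX libraries and 444 and 493 CPM in control libraries (log2 fold change 0.15, adjusted p = 0.216). Its log2 fold change was 0.22 without control replicate 2 (adjusted p = 0.0454) and 0.07 without control replicate 1 (adjusted p = 0.632).

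Per transcript length Ccnd3 took a larger share of the D cyclins in both TLX libraries than in either control library. Levels per length are in RPKM, which is CPM divided by the deposited feature length in kilobases. Ccnd1 made up 65.6% and 65.5% of the D-type sum in TLX libraries and 66.8% and 65.3% in control libraries. Ccnd3 made up 13.4% and 12.4% in TLX libraries and 11.2% and 11% in control libraries, and Ccnd2 the rest. The D-type sum was 421 and 414 RPKM in TLX libraries and 349.5 and 360.0 RPKM in control libraries. Ccne1 made up 90.1% and 90.4% of the E-type sum in TLX libraries, against 88.6% and 86.1% in control libraries. Ccnb1 made up 69.2% and 68.9% of the B-type sum in TLX libraries and 67.4% and 67.0% in control libraries. With 2 libraries against 2, an exact permutation test of a single value cannot reach the threshold, so these shares are given as descriptions.

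The kinases of G1 did not pass the test. Cdk4 stood at 313 and 307 CPM in TLX libraries and 339 and 311 CPM in control libraries, and the groups overlapped (log2 fold change -0.07, interval -0.23 to 0.09, adjusted p = 0.610). Cdk6, the other partner of D cyclins, stood at 31.4 and 37.8 CPM in TLX libraries and 32.9 and 34.1 CPM in control libraries (log2 fold change 0.04, interval -0.18 to 0.27, adjusted p = 0.843), and its sign turned to -0.09 without TLX replicate 2. Per length Cdk4 took 94.8% and 93.7% of the sum of these kinases in TLX libraries and 95% and 94.4% in control libraries. Cdk2, the partner of cyclins E and A, stood at 59.0 and 63.3 CPM in TLX libraries and 51.1 and 54.2 CPM in control libraries. Its groups did not overlap, and it did not pass once p was adjusted over all tested genes (log2 fold change 0.21, interval 0.03 to 0.40, edgeR unadjusted p = 0.0263, adjusted p = 0.110).

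Among the enzymes that place and remove the inhibitory phosphates of CDKs, 1 of 5 rose, against 7.79% of all tested genes. Wee1, the kinase that holds Cdk1 inactive, stood at 20.7 and 23.4 CPM in TLX libraries and 14.6 and 15.7 CPM in control libraries (log2 fold change 0.54, SE 0.13, adjusted p = 0.00565). It did not pass in DESeq2 (0.0837) or without TLX replicate 2 (0.0644). Pkmyt1, for the membrane-bound kinase Myt1 that acts on the same Cdk1 residues, had a log2 fold change of -0.07 with overlapping groups (interval -0.31 to 0.16, adjusted p = 0.723), and 0.07 without TLX replicate 2. The Cdc25 phosphatases remove these phosphates. Cdc25a had a log2 fold change of 0.17 and Cdc25b of 0.11, both with overlapping groups, and Cdc25c of 0.23 (adjusted p of 0.331, 0.446 and 0.282). Cdc25c passed without control replicate 2, with a log2 fold change of 0.44 and an adjusted p of 0.0453, and stood at 0.06 without control replicate 1 (adjusted p = 0.840).

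Of 6 CDK inhibitor genes, 3 were at or near 0 in every library. Cdkn2a, which encodes the INK4 inhibitor p16 and the p53 activator p19Arf, and its neighbour Cdkn2b, which encodes p15, had 0 counts in all 4 libraries. With 3 counts as the limit that a count of 0 allows, their level could reach 0.302 to 0.378 CPM, by library and for counting error only. Cdkn1c, for the Cip/Kip inhibitor p57, had 0 and 1 counts in TLX libraries and 1 and 1 in control libraries. The inhibitor genes that were expressed had positive fold changes without passing. Cdkn2d, for the INK4 inhibitor p19, stood at 38.0 and 38.1 CPM in TLX libraries and 31.1 and 31.3 CPM in control libraries. The spread within each group was small and the groups lay apart (log2 fold change 0.29, interval 0.08 to 0.49, adjusted p = 0.0538).

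Cdkn1b, for the Cip/Kip inhibitor p27, stood at 35.6 and 36.0 CPM in TLX libraries and 27.8 and 31.6 CPM in control libraries (log2 fold change 0.27, interval 0.05 to 0.49, adjusted p = 0.0888). Cdkn2c, for the INK4 inhibitor p18, stood at 16.8 and 15.4 CPM in TLX libraries and 10.5 and 14.5 CPM in control libraries (log2 fold change 0.35, interval 0.03 to 0.67, adjusted p = 0.130). Both values turned on which control library was kept. Without control replicate 2 both passed: Cdkn1b had a log2 fold change of 0.37 (adjusted p = 0.0236) and Cdkn2c of 0.61 (adjusted p = 0.00993). Without control replicate 1, Cdkn1b had 0.18 (adjusted p = 0.300) and Cdkn2c 0.15 (adjusted p = 0.598). Per length Cdkn2d held 50% and 50.9% of the sum of the 6 inhibitor genes in TLX libraries and 53.7% and 48.4% in control libraries. That sum was 59.9 and 58.9 RPKM in TLX libraries and 45.6 and 50.9 RPKM in control libraries. Cdkn1a, which encodes the p53-induced inhibitor p21 and is neither among the 40 genes nor in that sum, went the other way. Per length it lay above that sum, at 269 and 256 RPKM in TLX libraries and 333 and 324 RPKM in control libraries. It stood at 544 and 518 CPM in TLX libraries and 674 and 656 CPM in control libraries (log2 fold change -0.32, SE 0.08, adjusted p = 0.00517; 0.0548 and 0.159 without TLX replicates 1 and 2).

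The small Cks proteins bind CDKs and help them dock on phosphorylated substrates, and Cks1 also joins Skp2 in the ligase that degrades p27. Cks2 stood at 56.0 and 55.5 CPM in TLX libraries and 48.5 and 43.5 CPM in control libraries (log2 fold change 0.28, SE 0.09, adjusted p = 0.0387). It did not pass without control replicate 2 (log2 fold change 0.20, adjusted p = 0.188), without TLX replicates 1 or 2 (0.211 and 0.169), in DESeq2 (0.241) or over all feature rows. Cks1b stood at 79.7 and 75.1 CPM in TLX libraries and 73.2 and 73.0 CPM in control libraries (log2 fold change 0.08, interval -0.09 to 0.26, adjusted p = 0.560). Skp2 had a log2 fold change of 0.15 (interval -0.11 to 0.41, adjusted p = 0.448). How reads that match several places were counted is not given, so counts of short genes with processed copies, such as those of the Cks family, are less certain.

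Of the 9 genes of the CDK-activating kinase and of the CDKs and cyclins that act on transcription, 1 rose, Cdk7, and 8 did not pass. Over all tested genes 7.79% rose. Cdk7 with cyclin H and Mat1 forms the CDK-activating kinase, which is also part of TFIIH. Cdk7 stood at 31.2 and 26.5 CPM in TLX libraries and 22.7 and 22.8 CPM in control libraries (log2 fold change 0.34, SE 0.12, adjusted p = 0.0469). Without TLX replicate 1 its log2 fold change was 0.22 with an adjusted p of 0.458. It did not pass either without control replicate 1 or 2 (0.0518 and 0.0617), in limma-voom (0.0531) or in DESeq2 (0.295). Ccnh, for cyclin H, stood at 18.1 and 17.5 CPM in TLX libraries and 19.1 and 21.5 CPM in control libraries, so TLX lay lower without passing (log2 fold change -0.19, adjusted p = 0.325). Mnat1, for Mat1, fell to 24.1 and 21.3 CPM in TLX libraries, against 27 and 31.5 CPM in control libraries (log2 fold change -0.37, SE 0.12, adjusted p = 0.0359; between 0.00262 and 0.281 over the alternatives). It did not pass in DESeq2 (0.254), without control replicate 2 (0.218) or without TLX replicate 2 (0.281). Of the 3 subunits of this complex, then, 1 rose, 1 fell and 1 did not pass.

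The remaining genes of this class did not pass. Cdk9, of the elongation kinase P-TEFb, had a log2 fold change of -0.06 (interval -0.24 to 0.12, adjusted p = 0.715), and its cyclins Ccnt1 and Ccnt2 had -0.0071 and 0.05, all with overlapping groups. The signs of Cdk9, Ccnt1 and Ccnt2 turned when single libraries were left out. Of the Mediator kinase, Cdk8 had a log2 fold change of -0.15 and its cyclin Ccnc of 0.24 (adjusted p of 0.316 and 0.290). Cdk12 and Cdk13, which phosphorylate RNA polymerase II during elongation, had 0.19 and 0.06 (adjusted p of 0.157 and 0.718), and the groups overlapped for Cdk13. Of the CDKs with roles outside the cycle, Cdk5, best known from neurons and activated by partners that are not cyclins, had a log2 fold change of -0.18, Cdk16 of -0.15 and Cdk14, which acts with cyclin Y in Wnt signalling, of 0.19 (adjusted p of 0.360, 0.286 and 0.362). Cdk14 passed without control replicate 2, at 0.45 (adjusted p = 0.00577), and stood at -0.02 without control replicate 1.

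On the per-length scale the order of the 37 tested genes was alike in TLX and control libraries. In TLX libraries Ccnd1 stood highest, at 274 ± 3.67 RPKM, followed by Cdk4 at 230.4 ± 3.18 RPKM (SD, n = 2). In control libraries Cdk4, at 241 ± 14.8 RPKM, and Ccnd1, at 234 ± 1.12 RPKM, did not differ beyond their spread. Cks1b (102 ± 4.29 RPKM in TLX, 96.6 ± 0.188 RPKM in control), Ccnd2 (90.0 ± 2.36 RPKM in TLX, 81.2 ± 6.01 RPKM in control) and Cks2 (80.3 ± 0.584 RPKM in TLX, 66.2 ± 5.10 RPKM in control) followed in either group. Ccnd3, Ccnb1 and Cdk1 took ranks 6, 7 and 8 in TLX as in control. Ccne1 ranked 12 in TLX libraries, at 24.8 ± 0.438 RPKM, and 17 in control libraries, at 16.0 ± 2.35 RPKM. At the low end Skp2 stood at 3.24 ± 0.117 RPKM in TLX and 2.92 ± 0.108 RPKM in control, and Ccne2 at 2.68 ± 0.0206 RPKM in TLX and 2.29 ± 0.0318 RPKM in control.

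**Figure D4:**
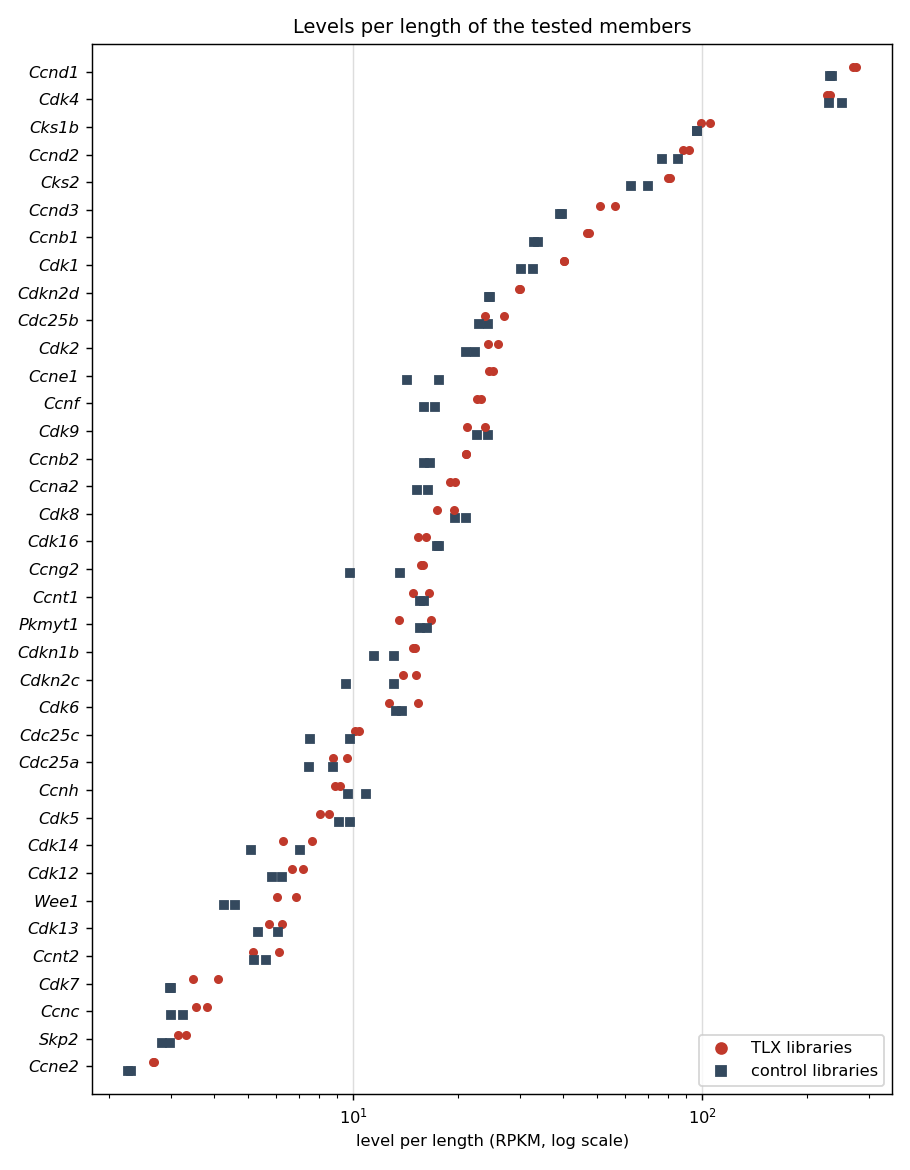
Level per length (RPKM, log axis) of the 37 tested genes in each TLX library (circles) and each control library (squares), ordered by the TLX mean. Ccnd1 and Cdk4 lie above all other genes in every library, and Ccne1, Ccnf and Ccnb1 show TLX points clear of the control points.

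The profile over the 4 libraries most like that of Ccne1, the gene of smallest p, was that of Ccnf, with summed absolute differences of 0.35 in centred log2 CPM. Ccnb1 came next at 0.49 and Ccnd3 at 0.52. This likeness was measured over 4 libraries only.

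Other genes of the same pathways, from lists that exclude the 40, gave the following counts, to be read against the 7.79% of all tested genes that rose and the 9.04% that fell. Of 18 tested genes of checkpoint and mitotic entry, 5 rose and 1 fell, with a median log2 fold change of 0.19. Plk1, the kinase that helps activate cyclin B with Cdk1, stood at 104 and 97.2 CPM in TLX libraries and 61.4 and 59.0 CPM in control libraries (log2 fold change 0.74, adjusted p = 1.47e-06). Foxm1 and Mybl2, for transcription factors of mitotic genes, had log2 fold changes of 0.51 and 0.38 (adjusted p of 3.48e-05 and 0.00639; Mybl2 0.101 without TLX replicate 1 and 0.0692 in DESeq2). Of 13 Rb and E2F genes 3 rose and 0 fell, with a median of 0.30: E2f7, a repressor of the E2F family, by 0.69, E2f1, an activator, by 0.37 and E2f8, the other atypical repressor, by 0.33. E2f1 did not pass without TLX replicate 2 (0.0779), nor E2f8 without TLX replicate 1 or 2 or in DESeq2 (adjusted p up to 0.183). Of 23 genes of cyclin degradation 4 rose and 0 fell, with a median of 0.11. Cdc20, the activator of the ligase APC/C that destroys cyclin B, stood at 153 and 145 CPM in TLX libraries and 118 and 108 CPM in control libraries (log2 fold change 0.40, adjusted p = 0.00119; 0.0520 without TLX replicate 1). Anapc1, its largest subunit, and Ube2c, its ubiquitin-conjugating enzyme, had 0.30 each (adjusted p of 0.00883 and 0.0178). Anapc1 did not pass without TLX replicate 1 or 2 (0.0847 and 0.160), nor Ube2c without TLX replicate 1 or 2 (0.154 and 0.109), without control replicate 1 (0.0803) or in DESeq2 (0.102).

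Of 10 tested other cyclins 0 rose and 1 fell, Ccnl1, whose cyclin L1 acts in splicing. It stood at 33.7 and 38.9 CPM in TLX libraries and 43.7 and 56.8 CPM in control libraries (log2 fold change -0.48, adjusted p = 0.00532; up to 0.0799 without control replicate 2 or TLX replicate 1). Of 8 tested other CDKs and CDK-like kinases 0 rose and 1 fell, Cdk17, a relative of Cdk16. It stood at 20.3 and 18.4 CPM in TLX libraries and 30.6 and 29.3 CPM in control libraries (log2 fold change -0.62, SE 0.12, adjusted p = 5.30e-04), and passed under each of the 12 alternatives. Of 16 tested other inhibitors and CDK-binding proteins 1 rose and 3 fell, the 3 being Cdkn1a, Mnat1 and Cdk5rap1 (log2 fold change -0.53, adjusted p = 0.0358; 0.288 in DESeq2, and up to 0.245 without control replicate 1 or TLX replicate 2). The medians of these 3 lists were -0.04, -0.04 and 0.07, against 0.00057 over all tested genes.

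**Figure D5:**
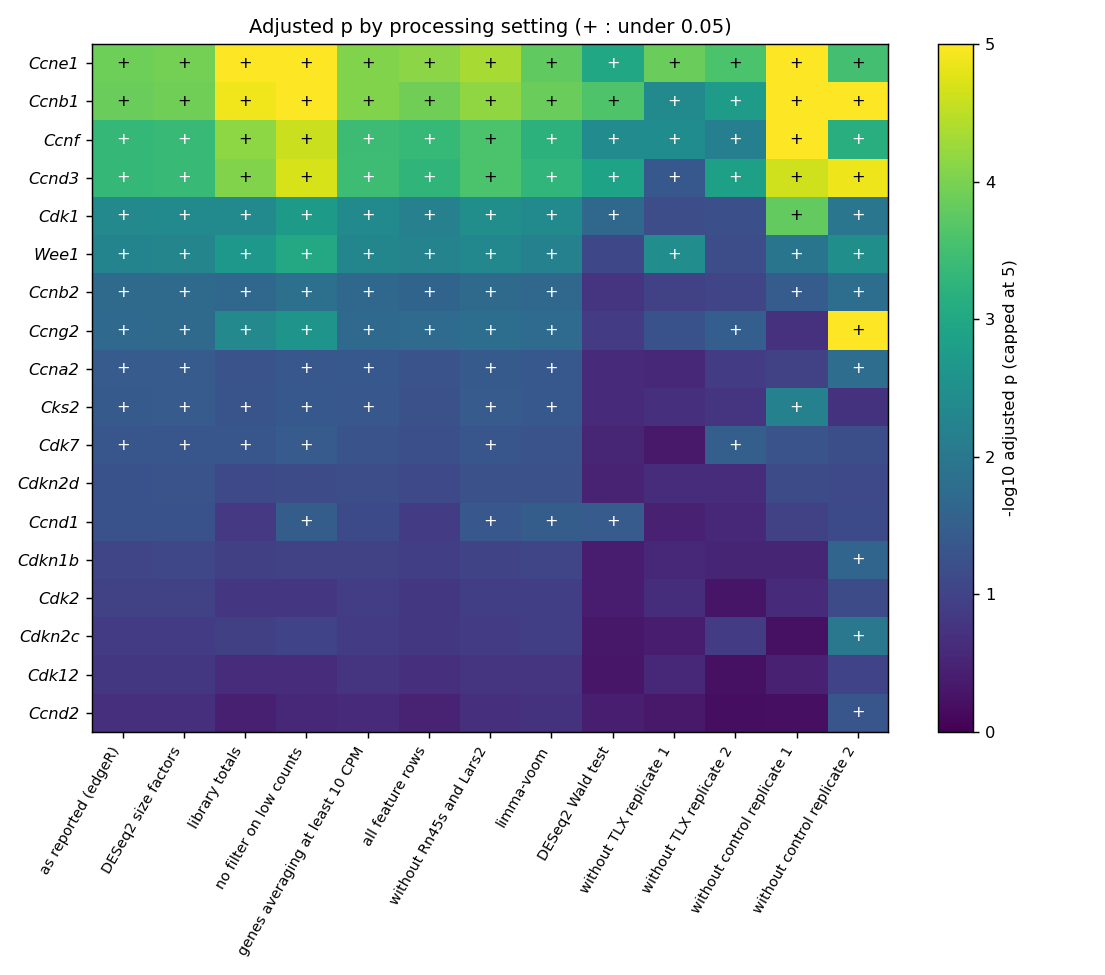
Adjusted p, as its negative log10 capped at 5, for the 18 genes of smallest p (rows) under the reported test and 12 other settings (columns); a plus marks adjusted p under 0.05. The top 4 rows, Ccne1, Ccnb1, Ccnf and Ccnd3, carry a plus in every column, and pluses thin out from Cdk1 downward in the DESeq2 and left-out columns.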

How the data were processed

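RNA-seq of total RNA was run on 4 libraries, 2 TLX and 2 control. The authors deposited raw read counts per feature with a feature length, per the file headers. TopHat2 2.0.13 and build mm9 are named, per the submitters' processing notes. The sources used here do not give the counting program, the annotation, the strand setting or the treatment of multi-mapped reads. Of 56826 rows, 33353 are FANTOM3 cDNA clones, 23.3% to 25.1% of the counts of a library, and entered neither library sizes nor tests. The median chi-square per gene was 0.718 between TLX libraries and 1.07 between control libraries, against 1.99 to 2.28 between groups. A repeated library would also lie closer within its group than between groups, so these values do not settle whether a library was repeated.

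Counts of the 23473 gene rows entered edgeR's quasi-likelihood test after TMM scaling and filterByExpr, with a minimum count of 10. P-values were adjusted over 11024 genes (Benjamini-Hochberg). CPM and RPKM use TMM-scaled library sizes. SEs are the log2 fold change divided by the square root of F. The common biological coefficient of variation was 5.24%. The script was tested on simulated data, in which every gene had this common coefficient of variation and few genes were changed. Genes of the real data differ in spread and more of them were called, so the simulated rates need not hold there. In the simulation the script called 14 of 50 genes changed 1.25-fold, 33 of 50 changed 1.5-fold and 48 of 49 changed 2-fold. Of 10750 unchanged genes it called 1. A gene that did not pass may therefore have changed as much as some that did. Alternatives were other scalings and filters, DESeq2, limma-voom, all feature rows, no Rn45s and Lars2, a replicate block and leaving out each library. The tools were edgeR 4.0.16, DESeq2 1.42.0 and limma 3.58.1, in R 4.3.3.

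The genes, lists and motifs were chosen with earlier results of these data known. The rule for naming took all 40 genes, Nr2e1, Cdkn1a and up to 3 called genes of smallest p per list. Promoter sequences come from RefSeq on GRCm38.p6.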

Additional observations from a re-analysis of the deposited data

How the results depend on the processing

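With 12 alternatives, the replicate block apart, 397 comparisons of a single cyclin or CDK gene with its reported value kept direction and side of the threshold, 28 lost the call, 9 gained one and 9 changed sign. The genes called higher numbered 11 as reported and 5 to 14 when 1 library was left out, and 0 were called lower in any setting. DESeq2's Wald test called 6 of the 37 higher, 5 of them among the 11, and 345 genes higher and 480 lower over the whole table; it gave no adjusted p for 428 genes, 0 of them among the 37. Leaving out 1 library gave 388 to 993 genes higher and 585 to 1060 lower. All changes of sign were in genes that did not pass, when 1 library was left out: Cdk14 between -0.02 and 0.45, Cdk9 between -0.14 and 0.02, Cdk13 between -0.02 and 0.16, Pkmyt1 between -0.24 and 0.07, Ccnt2 between -0.07 and 0.17, Cdk6 between -0.09 and 0.17 and Ccnt1 between -0.09 and 0.07. With 1 library in a group, that library is assumed to vary like the others. The median log2 fold change of all tested genes lay between -0.0079 and 0.0073 over these settings.

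The groups share replicate numbers in their titles, but nothing says that a number marks a shared culture or day. Over genes, the difference between replicates 1 and 2 in TLX correlated with that in control at r = 0.108. With the replicate number as a block, 17 of the 37 genes were called higher and 0 lower, and of all tested genes 1495 were higher and 1487 lower. All 11 reported calls held. Depth limits the least abundant genes: Ccne2 had an SE of 0.18 on the log2 scale and Ccnd1 of 0.08.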

Other observations

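Cdkn2a and Cdkn2b, which had 0 counts in all 4 libraries, lie beside each other in the RefSeq order of GRCm38.p6. The protein-coding gene next to Cdkn2a on the other side, Mtap, which encodes an enzyme of methionine salvage, was counted 510 and 460 times in TLX libraries and 491 and 633 times in control libraries. Beyond Mtap, Ifne had 0 counts in all 4 libraries. Beyond Cdkn2b, Dmrta1 had 0 and 0 counts in TLX libraries and 1 and 0 in control libraries, and Zfp352 had 0 in all. These neighbours were looked up after the counts of Cdkn2a and Cdkn2b were seen.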
